A study of Mus musculus with 12 samples.

Results

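Arrays labelled as lacking both the transcription factor Ets1 and its relative Ets2 were set against arrays labelled as lacking Ets1 alone. There were 5 of them, 2 labelled DKO and 3 Ets1KO, out of 12 deposited array columns. All were labelled as cultured endothelial cells from the aorta of mice 4 weeks old. By label, both groups carried Ets1-/- alleles and floxed Ets2 (Ets2fl/fl). They differed in their lentivirus, which expressed eGFP in Ets1KO and eGFP with Cre in the arrays labelled DKO, so that Cre and Ets2 loss cannot be told apart. The Ets2 contrast in cells that keep Ets1 by label served for comparison. It sets 3 Ets2KO arrays (Ets1+/+ with Ets2fl/fl, eGFP with Cre virus) against 3 WT arrays (Ets1+/+ with Ets2+/+, eGFP virus) and shares no array with the main comparison. The third DKO column was left out, because in 20521 of 20523 probe sets it is, within 1e-05, the average of the other DKO columns.

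Ets1 and Ets2 are closely related ETS-domain transcription factors that bind a GGAA core in promoters and enhancers and act downstream of growth factor signalling in endothelium. Endothelial cells also respond to low oxygen through the hypoxia-inducible factors. These are marked for degradation by prolyl hydroxylases such as Egln1 and Egln3 when oxygen is present. When stabilised they bind short cores such as ACGTG and induce glucose uptake, glycolysis and angiogenic ligands such as Vegfa and Adm.

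The values are log2 signals per probe set, a group of short probes for 1 transcript region. The median signal of the arrays labelled DKO was 8.30 and 8.29, against 9.13, 9.14 and 9.15 for Ets1KO, and each array's median was subtracted before any comparison. The arrays labelled DKO correlated at r = 0.916 with each other over all probe sets, the Ets1KO arrays at 0.949 to 0.980, and arrays of different groups at 0.824 to 0.860. The median SD of a gene was 0.232 over the arrays labelled DKO and 0.183 over the Ets1KO arrays. Of the endothelial markers, 3 of 12 were measured (Kdr, Eng and Egfl7), with mean levels below the array median in both groups, and none of the 3 was called. Their means were -1.62 and -1.47 on the arrays labelled DKO and -1.21, -1.40 and -1.50 on the Ets1KO arrays. Pecam1 and Cdh5 were not analysed here. Fibroblast markers were mixed. Col1a2 had a mean of 5.93 above the array median in DKO and 5.11 in Ets1KO. Of 8 measured, 3 lay in the dimmest 25% on every array labelled DKO, and 3 on every Ets1KO array. The measured markers thus do not bear out the labelled cell type, though 3 of 12 endothelial markers are too few to decide it. Averaged over 4 measured adipocyte markers, the level was 0.63 on DKO replicate 1 and -2.26 on DKO replicate 2, against -3.20 to -2.86 in Ets1KO. Mesothelial markers, 2 of 5 measured and none called, averaged 1.73 and 1.905 in DKO and 2.96, 3.03 and 2.73 in Ets1KO. They averaged -2.56, -0.35 and 2.05 in WT and -0.27 to -1.26 in Ets2KO. Smooth muscle markers, 4 of 7 measured and none called, averaged 1.735 and 0.13 in DKO and -0.28, 0.09 and 1.31 in Ets1KO. The part of other cell types in the results was not tested, and a change in cell mixture cannot be told apart from a change per cell.

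Neither targeted gene was lower in the arrays labelled DKO. The brightest Ets2 probe set read 2.72 and 1.34 above the median in DKO and 1.15, 1.23 and 1.39 in Ets1KO, so that the groups overlapped. The difference was 0.77 (SE 0.41, limma adjusted p = 0.183), and -0.07 as deposited. It was 0.08 without DKO replicate 1 and 1.46 without DKO replicate 2, where it passed the test. A second Ets2 probe set differed by 0.65. In Ets2KO minus WT the brightest probe set differed by -0.42 (limma adjusted p = 0.57), with 0.55, 0.29 and 1.06 in Ets2KO and 0.68, 0.89 and 1.59 in WT. Lower Ets2 was thus not shown on the arrays labelled Ets2KO either.

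Ets1, which is null in both groups by label, was higher in the arrays labelled DKO. Its brightest probe set read 1.72 and 1.99 in DKO and -0.82, -0.38 and 0.02 in Ets1KO, a difference of 2.26 (SE 0.26, limma adjusted p = 0.000622). The second probe set rose by 2.04 and the fourth by 0.93, while the third differed by -0.65 (limma, adjusted p = 0.0824 over probe sets). The 5 arrays allow 10 splits, so an exact permutation test cannot go below 0.1. It gave 0.1 for the 3 Ets1 probe sets that were higher and 0.2 for Ets2. Where in the genes these probe sets lie relative to the deleted parts was not analysed here. The signals of the targeted genes thus do not bear out the label, and whether the alleles were deleted cannot be told from them. Every direction that follows is that of the arrays labelled DKO against Ets1KO.

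Of 11015 genes tested, 3470 (31.5%) differed between the groups at a Benjamini-Hochberg adjusted p below 0.05 in limma. Higher values in the arrays labelled DKO were found for 2375 genes (21.6%) and lower ones for 1095 (9.94%). The median difference over all genes was 0.25 after centring and -0.59 as deposited. The split of calls followed this shift, with 68.4% of calls higher after centring, 56.2% after quantile normalization and 3.88% (190 of 4900) as deposited. Differences and folds below are after centring and have smaller rises and larger falls as deposited, for example 2.70 in place of 3.54 for Egln3 and -5.68 in place of -4.84 for Qsox1. Groups did not overlap for 6726 genes (61.1%). Gene lists are given by their called members, to be read against 21.6% higher and 9.94% lower over all genes. Of 29 pathway lists, 19 had more members higher than lower after centring. Of these 19, 16 had more lower than higher as deposited, the exceptions being hypoxia and glycolysis, glycogen and inflammatory genes. After quantile normalization 5 of the 19 had more lower, namely endoplasmic reticulum stress, heat shock, contractile, respiratory chain and cytosolic ribosomal genes. A direction for any of those 16 lists is therefore that of the centred values.

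Probe sets of a gene disagreed more often here than in the other Ets2 contrast. Of 4785 genes with 2 or more probe sets, 2429 (50.8%) had all of them on the same side of 0, against 3355 (70.1%) in Ets2KO minus WT. The brightest and second-brightest probe sets correlated across genes at r = 0.377 here and 0.783 there, and at 0.418 and 0.837 where both were above the median level. These genes share the same arrays and are not independent. Adam17, a sheddase of membrane-bound ligands, shows the pattern: 3 probe sets differed by 1.41, -0.21 and -3.18. The third of them read -3.25 and -2.71 in DKO and 0.30, 0.23 and 0.09 in Ets1KO. Adam10, a related sheddase, likewise differed by 1.23, -2.45 and -2.12. The 6 widest splits among bright genes were, by this measure, Pfkp (-4.68 to 2.62), Epb41l2 (-4.29 to 2.28), Kpnb1 (-5.34 to 1.14), Gja1 (-3.90 to 1.90), Etnk1 (-4.16 to 1.59) and Caprin1 (-3.87 to 1.73). In Ets2KO minus WT, the probe sets of these 6 genes spread over 0.13 to 1.13. In all, 146 genes had probe sets beyond 1 in both directions. More weight is therefore given to the 398 genes (8.32% of 4785) whose probe sets were all called in the same direction, 272 (5.68%) higher and 126 (2.63%) lower. The lower array medians go with the group in which probe sets disagreed, and their part in this was not tested.

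**Figure D1:**
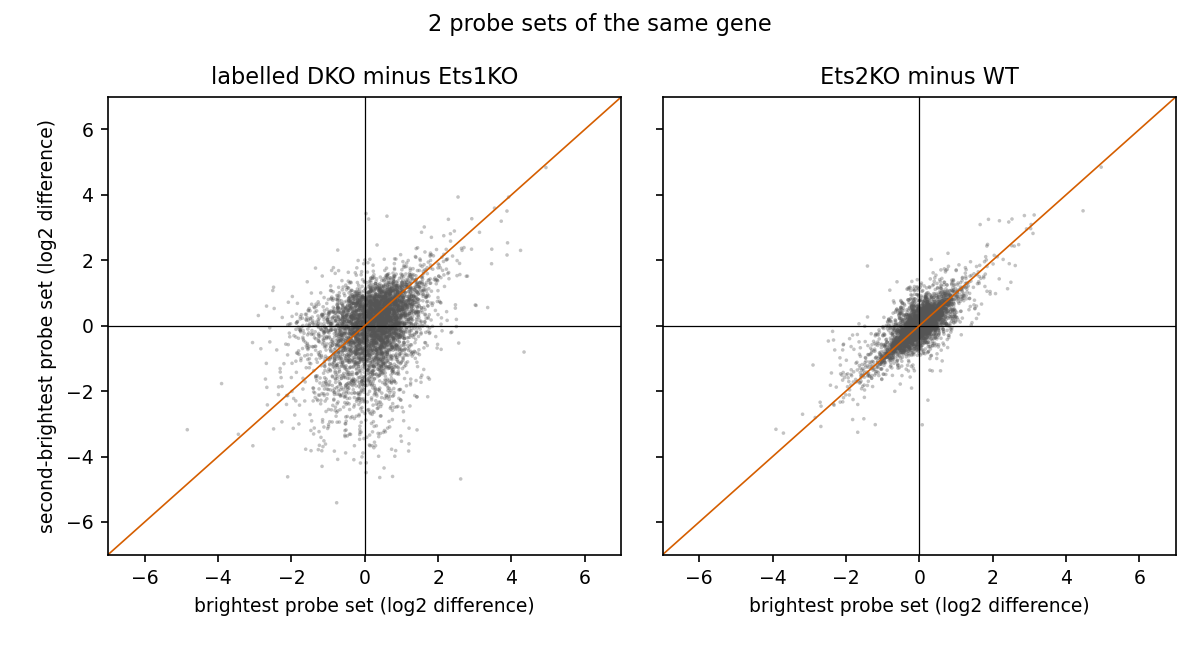
Difference in log2 value at the brightest (x axis) and second-brightest (y axis) probe set of each of 4785 genes, for the arrays labelled DKO minus Ets1KO (left) and Ets2KO minus WT (right); the line marks equal values. The points on the left spread away from the line, most of all below it, and r is 0.377 against 0.783 on the right.

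Genes of the hypoxia response and of glycolysis rose together in the arrays labelled DKO. Of 31 listed, 27 were measured, all 27 were above 0, 26 were called higher and none lower, against 21.6% of all genes called higher. Their median difference was 2.41, or 1.57 as deposited, beside 0.25 and -0.59 over all genes. Averaged over the list, the level was 3.48 and 3.67 on the arrays labelled DKO and 0.84, 1.56 and 1.32 on the Ets1KO arrays. It lay between 1.27 and 1.73 in WT and between 0.38 and 0.98 in Ets2KO, so that all 9 other arrays were below both DKO arrays. Of 17 members with 2 or more probe sets, 10 had every one called higher and 5 had one below 0.

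Promoters of 4 members named by the rule, whose probe sets were all called higher, are given below from RefSeq (GRCm38.p6, 250 bases before to 50 after the gene's start, 5' to 3' on the gene's strand). They lie at chr12:54203825-54204124 on the minus strand for Egln3, chr9:121857747-121858046 on the minus strand for Higd1a, chr14:45318523-45318822 on the minus strand for Ero1a, and chr7:110627407-110627706 on the plus strand for Adm. They are shown because the arrays cannot show what binds there, and the letters let the hypoxia core be seen in place. Capitals mark ACGTG or its reverse complement CACGT. Egln3 has the match 229 bases before the start, Ero1a 63 bases before it and Higd1a 43 bases after it. The Adm window holds no match to ACGTG, and other forms of the core were not searched.
Egln3: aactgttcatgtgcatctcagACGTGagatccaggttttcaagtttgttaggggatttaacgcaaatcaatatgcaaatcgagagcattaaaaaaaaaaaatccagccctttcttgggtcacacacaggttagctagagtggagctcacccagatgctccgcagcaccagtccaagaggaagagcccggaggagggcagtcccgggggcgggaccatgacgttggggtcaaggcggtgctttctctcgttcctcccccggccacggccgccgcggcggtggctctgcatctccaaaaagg
Higd1a: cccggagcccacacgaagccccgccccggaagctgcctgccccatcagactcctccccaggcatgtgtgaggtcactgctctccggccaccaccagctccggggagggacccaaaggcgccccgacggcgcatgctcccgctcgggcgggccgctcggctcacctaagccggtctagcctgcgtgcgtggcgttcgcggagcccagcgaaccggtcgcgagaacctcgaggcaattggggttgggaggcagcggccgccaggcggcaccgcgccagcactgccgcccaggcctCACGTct
Ero1a: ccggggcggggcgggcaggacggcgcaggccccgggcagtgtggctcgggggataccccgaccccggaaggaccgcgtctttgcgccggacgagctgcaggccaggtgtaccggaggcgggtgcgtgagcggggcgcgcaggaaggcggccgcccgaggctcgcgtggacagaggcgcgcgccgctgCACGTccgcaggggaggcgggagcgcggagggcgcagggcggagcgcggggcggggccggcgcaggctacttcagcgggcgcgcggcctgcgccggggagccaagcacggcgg
Adm: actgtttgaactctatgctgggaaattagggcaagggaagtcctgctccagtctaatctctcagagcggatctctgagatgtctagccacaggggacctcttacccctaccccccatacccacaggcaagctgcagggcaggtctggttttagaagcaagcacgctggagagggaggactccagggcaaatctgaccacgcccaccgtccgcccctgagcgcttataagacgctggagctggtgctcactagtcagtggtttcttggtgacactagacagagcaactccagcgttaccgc

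Searched on both strands, ACGTG was present in 17 of 26 hypoxia and glycolysis promoters (65.4%), against 26.3% of promoters of all genes tested and 19.7% of 27025 promoters in the table. It was present in 37.6% of 221 promoters of genes with all probe sets called higher and in 18.6% of 102 with all called lower. CCGGAA, an ETS core, was found in 19.2% of the hypoxia and glycolysis promoters, 33.9% of the all-higher, 39.2% of the all-lower and 29.3% of all tested promoters. Median GC content was 65.3%, 62.3%, 64.2% and 61.3% in the same order. The all-higher genes include 10 members of the hypoxia and glycolysis list, which was made of genes tied to that response, so these shares are not independent support. A match is a description of the sequence and not a bound site.

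Among the oxygen sensors, Egln3 read 3.89 and 3.72 on the arrays labelled DKO and -0.42, 1.15 and 0.08 on the Ets1KO arrays. The groups were far apart, and both probe sets rose, by 3.54 and 3.60 (brightest 11.6-fold, SE 0.45, limma adjusted p = 0.000978). Egln1, the main prolyl hydroxylase at normal oxygen, rose by 2.52 and 1.99 at its probe sets. Kdm3a, a hypoxia-induced histone demethylase, rose by 1.67.

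Secreted and signalling products rose as well. Adm, which encodes the vasodilator peptide adrenomedullin, read 1.87 and 0.36 in DKO and -2.94, -2.78 and -2.69 in Ets1KO, and both probe sets differed by 3.92 and 3.93 (brightest 15.2-fold, SE 0.95, limma adjusted p = 0.0142). The rise of Adm did not pass without DKO replicate 1 (3.17, limma adjusted p = 0.0965). The brightest Vegfa probe set read 1.83 and 2.73 in DKO and -0.02, 0.39 and 0.24 in Ets1KO, a rise of 2.08. The other Vegfa probe set differed by 0.05 with overlapping groups, and without DKO replicate 2 the call at the brightest was lost (1.63, limma adjusted p = 0.082). Vegfb, a related ligand, fell by 1.66, and Apln, the apelin peptide of angiogenic sprouts, rose by 1.36. The Vegfb call was lost without Ets1KO replicate 2 or DKO replicate 1, and the Apln call without DKO replicate 2.

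Glucose uptake and the upper steps of glycolysis moved with them. Slc2a1, the main endothelial glucose transporter, read 4.10 and 4.20 in DKO and 1.27, 2.21 and 1.96 in Ets1KO, and its 3 probe sets rose by 2.34, 2.59 and 1.64. Hexokinase Hk2 read 3.05 and 3.57 against -0.21, 0.78 and 0.73, a rise of 2.88 (SE 0.47, limma adjusted p = 0.00286). Both DKO values were above every Ets1KO value for these genes. Phosphofructokinase genes were less uniform. The brightest Pfkp probe set rose by 2.62, the second fell by 4.68 and the third rose by 1.47. Pfkl, the only member not called, differed by 0.87 (SE 0.36, limma adjusted p = 0.0904). Pfkfb3, a regulator of this step, rose by 1.56 from a low level.

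The lower glycolytic enzymes were bright in every array and rose by less. Pgk1 read 6.05 and 6.04 in DKO against 4.73, 5.25 and 5.07 in Ets1KO, and its 3 probe sets rose by 1.03, 0.86 and 1.57. All 5 Aldoa probe sets rose, by 0.72 to 1.46, and all 3 of Tpi1 by 0.84 to 0.96. Pgam1 rose by 0.87 and Ldha, the lactate dehydrogenase subunit, by 0.67, both with 1 probe set. Rises of this size are close to the gap between the array medians (8.30 and 8.29 in DKO, 9.13 to 9.15 in Ets1KO). The direction of the smallest of them therefore rests on the centring. Aldoc was the exception in size, rising by 4.08 from -3.20, -1.87 and -2.94 to 1.10 and 1.71. Pdk1, which keeps pyruvate out of mitochondria, rose by 1.19, 1.99 and 1.95 at its 3 probe sets. As deposited, the list had 15 calls in place of 26, and 20 after quantile normalization. It had 20 without DKO replicate 1 and 17 without DKO replicate 2, with none lower in any of these.

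**Figure D2:**
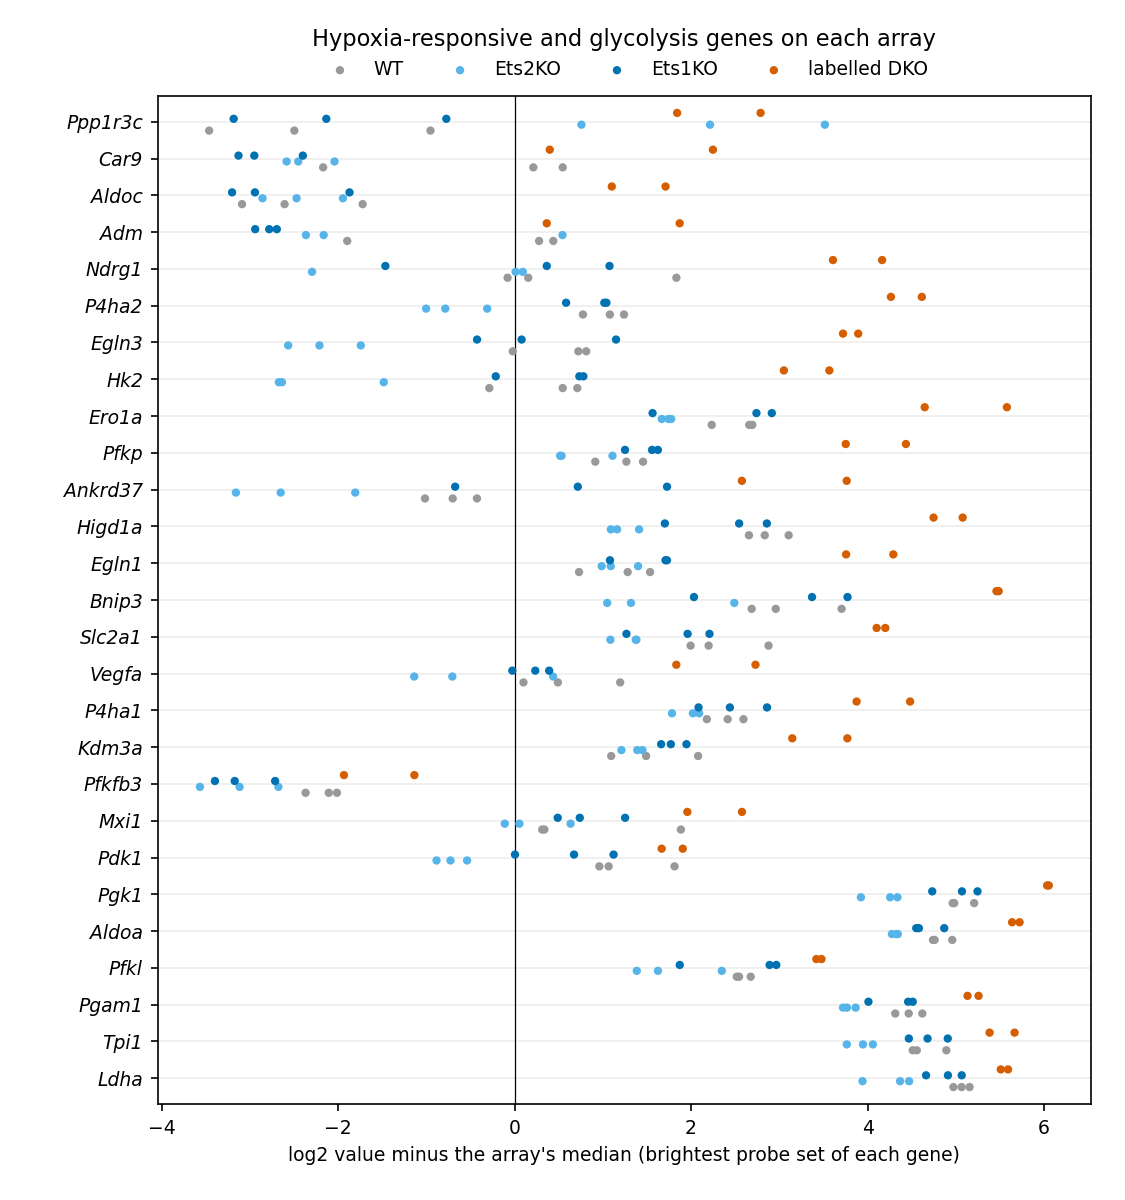
Log2 value minus the array's median (x axis) at the brightest probe set of each of 27 hypoxia and glycolysis genes, with 1 point per array and genes ordered by difference. The 2 arrays labelled DKO lie to the right of the 3 Ets1KO arrays in all 27 genes. Over all genes, groups did not overlap, in either direction, for 61.1%. Ets2KO lies at or left of WT in most of the 27, with Ppp1r3c the clear exception.

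Other hypoxia-induced members act in mitochondria, secretion and matrix. Higd1a, a mitochondrial inner membrane protein, rose at all 3 probe sets, by 2.54, 3.94 and 3.44. Its brightest read 5.08 and 4.75 in DKO and 1.70, 2.86 and 2.54 in Ets1KO. Ero1a, the oxidase that drives disulfide formation in the endoplasmic reticulum, rose at 3 probe sets, by 2.39 to 2.76. Bnip3, a mitophagy receptor, read 5.49 and 5.46 against 2.03, 3.77 and 3.37, a rise of 2.41. The collagen prolyl hydroxylase P4ha2 rose by 3.56 (SE 0.25, limma adjusted p = 0.000116). P4ha1 did not give a single answer, with probe sets at 1.72 and -2.17. Car9, a membrane carbonic anhydrase, rose by 4.15, Ankrd37 by 2.58, and Ndrg1 by 3.89 at the brightest of 5 probe sets, the weakest of which differed by 0.87. Mxi1, a Myc antagonist, had probe sets at 1.44 and -1.25. Members of this list beyond Adm, Egln3, Ero1a, Higd1a and the genes named by other lists are given because nearly all were called, a choice made after their values were seen.

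Glycogen genes, of which Ppp1r3c is in both lists, also held rises. Of 15 measured, 7 were called higher and none lower, with a median of 0.73. Pgm1, which interconverts glucose phosphates between glycogen and glycolysis, rose by 2.11 and 2.10 at its probe sets. It read 3.22 and 3.88 in DKO and 1.11, 1.74 and 1.49 in Ets1KO, and the call was lost without DKO replicate 2 (limma adjusted p = 0.0527). All 5 probe sets of Ugp2, which makes UDP-glucose, rose, by 0.86 to 1.78. Gbe1, the branching enzyme, rose by 3.81 (SE 0.42, limma adjusted p = 0.000509), and was named after its value was seen. Pygl, liver-type glycogen phosphorylase, read 0.24 and 0.60 in DKO and -3.24, -3.88 and -4.84 in Ets1KO, a rise of 4.40 that was lost on leaving out any of 7 arrays. Ppp1r3c, a glycogen-targeting phosphatase subunit, rose by 4.34 at its brightest probe set while the other differed by -0.80, and its call was lost without DKO replicate 2 (limma adjusted p = 0.0638). As deposited, the glycogen list had 4 calls higher and 3 lower.

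The naming rule took called genes that rose or fell by at least 1 at every one of 2 or more probe sets. Groups had to be apart at each probe set, with the higher group above the median gene. Of 4785 genes with 2 or more probe sets, 86 rises and 53 falls met this. The 12 with the largest smallest difference in each direction are named. Predicted genes were left out. The rises held 5 members of the lists above, namely Adm, Egln3, Higd1a, Ero1a and Pgm1. Vldlr, a receptor for triglyceride-rich lipoproteins, had the largest difference of these 12 at the brightest probe set. It read 1.70 and 2.13 in DKO and -3.19, -2.91 and -2.97 in Ets1KO, 30.7-fold higher (log2 4.94, SE 0.95, limma adjusted p = 0.00551), and its 4 probe sets rose by 2.78 to 4.94. The part of the adipocyte marker levels in this rise was not tested. Plod2, a collagen lysyl hydroxylase, read 2.80 and 3.64 against 0.82, 0.84 and 0.68, rising by 2.44 and 2.90. Ptgs2, the inducible cyclooxygenase, read 3.28 and 3.12 against -0.73, -0.97 and -0.34, rising by 3.88 and 2.16.

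The other rises were smaller. Pfn2, an actin-binding profilin, rose by 2.40, 2.13 and 2.61 at its 3 probe sets, and Homer1, a scaffold protein, by 2.24 and 2.02. Dipk2a rose by 2.64 and 2.37, a call lost without DKO replicate 2 (limma adjusted p = 0.0558). Sbsn, which encodes suprabasin, rose by 2.16 and 2.18, a call lost on leaving out any of the 5 arrays compared. By the naming rule, groups did not overlap at any probe set of these genes.

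The falls with the largest values lay in the secretory pathway, G protein signalling and the cell surface. Qsox1, a sulfhydryl oxidase of the secretory pathway, read -2.06 and -1.25 in DKO and 3.06, 3.20 and 3.29 in Ets1KO, 28.6-fold lower (log2 -4.84, SE 0.48, limma adjusted p = 0.000332). Its other probe set differed by -3.18. That probe set was the brightest, and stood for the gene at -3.23, -3.17 and -3.18, without Ets1KO replicate 2, Ets1KO replicate 3 or Ets2KO replicate 2. Gna12, a G protein alpha subunit, read -2.72 and -2.59 against 0.85, 0.94 and 0.59 and differed by -3.44 and -3.32. Cd99, a surface glycoprotein used in leukocyte passage between endothelial cells, differed by -3.05, -3.67 and -4.29. Each moved from above the array median to near or below it.

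Smaller falls of the same kind covered several cell functions. Arpc4, an actin-nucleating subunit, differed by -2.67 and -1.88, and Otub1, a deubiquitinase, by -2.35 and -1.87. Akt1s1, an inhibitory component of mTOR complexes, differed by -2.13 at both probe sets. Sbf1, a myotubularin-related protein, differed by -2.26 and -2.94, and Slc25a10, the mitochondrial dicarboxylate carrier, by -1.80 and -3.0. These 5 kept their calls when any single array was left out. Ppp5c, a serine/threonine phosphatase, differed by -2.13 to -3.71 over 3 probe sets. Tcf3, an E-protein transcription factor, differed by -2.10, -4.62 and -2.46. Tnfrsf12a, the receptor for the cytokine TWEAK, differed by -2.35 and -2.11, and its call was lost without Ets1KO replicate 3, DKO replicate 1 or DKO replicate 2 (limma adjusted p up to 0.0779).

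**Figure D3:**
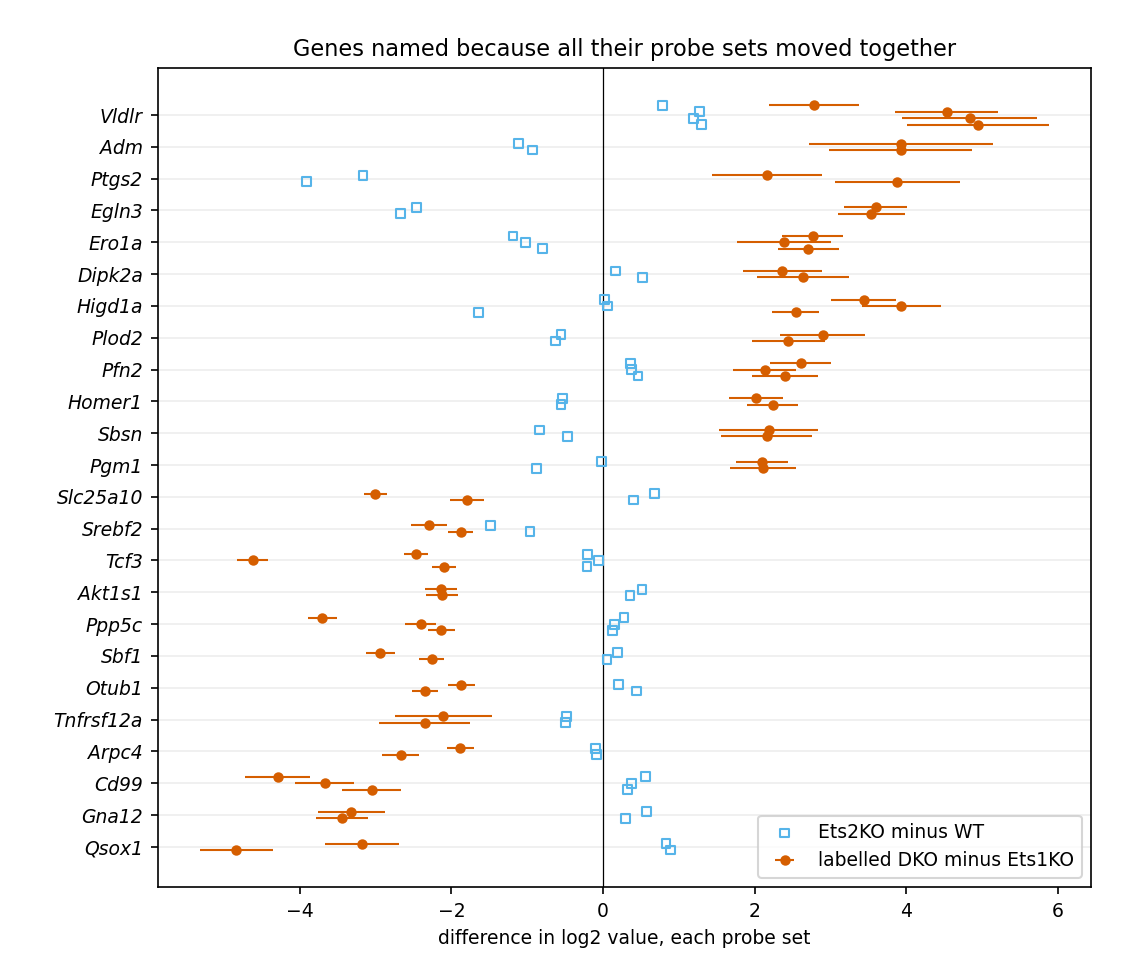
Difference in log2 value (x axis) at each probe set of the 12 rises and 12 falls, for the arrays labelled DKO minus Ets1KO (filled points, with limma SE) and for Ets2KO minus WT (open squares). All filled points lie beyond 1 from 0 by the naming rule. Open squares lie across 0 for 9 of 12 rises and 8 of 12 falls at the brightest probe set. Among all genes with every probe set called, the counts were 113 of 272 and 70 of 126.

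Sterol genes included a fall seen at both probe sets of their master regulator. Srebf2, the transcription factor of cholesterol synthesis, read -0.56 and -0.57 in DKO and 1.44, 1.34 and 1.16 in Ets1KO, differing by -1.88 and -2.30 (brightest SE 0.16, limma adjusted p = 0.00016). Of 21 measured genes of the pathway, 6 were called lower and none higher, against 9.94% of all genes called lower, and the median was -0.73. Fdps, farnesyl diphosphate synthase, read 0.46 and -1.43 against 1.82, 2.89 and 1.75, a fall of 2.64 that was 1.70 without DKO replicate 2. Ebp, a sterol isomerase, fell by 1.59, and Insig1, which retains the sterol sensor, fell by 1.83. The Insig1 call was lost on leaving out any of 4 arrays. The list mean was 0.22 and -0.55 on the arrays labelled DKO and 0.66, 0.98 and 0.27 on the Ets1KO arrays. The list had 7 calls lower and a median of -1.22 without DKO replicate 1, and 4 and -0.41 without DKO replicate 2. It had 14 calls lower as deposited. In Ets2KO minus WT the median was -0.96.

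Among inflammatory genes, 4 of 13 measured were called higher and none lower, with a median difference of 2.55. The list mean was 1.56 and 1.57 on the arrays labelled DKO and -0.73, -0.85 and -0.22 on the Ets1KO arrays, but 2.38, 1.87 and -1.12 in WT. As deposited, 3 were higher and 1 lower. There were 3 calls and a median of 1.36 without DKO replicate 1, and 2 calls without DKO replicate 2, Ets1KO replicate 1 or Ets1KO replicate 2. Lcn2, a siderophore-binding lipocalin, read 3.33 and 4.84 in DKO and -3.19, -3.65 and 0.09 in Ets1KO, a rise of 6.33 that was lost on leaving out any of 4 arrays. Lif, a cytokine, read 0.34 and 4.01 against -2.10, -2.42 and -2.43, and was also lost on leaving out any of 4 (2.65 without DKO replicate 2). Ccl5, a chemokine, read -0.02 and -0.35 against -2.89, -2.96 and -2.35, a rise of 2.55 (SE 0.44, limma adjusted p = 0.00377) that held without any single array. Ccl2, a monocyte chemokine named after its value was seen, read 2.38 and 2.83 against -2.65, -1.72 and -0.50, a difference of 4.23 that did not pass (limma adjusted p = 0.0651).

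NF-kappa-B feedback genes, which restrain the same signalling, gave 7 higher and 2 lower of 14 measured (median 0.95), but 1 higher and 3 lower as deposited. The higher calls numbered 4 without DKO replicate 1 or Ets1KO replicate 2, and 3 without DKO replicate 2. Nfkbia, the classical inhibitor, rose by 1.79 at the brightest of 5 probe sets, which differed by 1.36 to 1.79, and the call was lost without DKO replicate 2. Nfkbiz, an atypical inhibitor, read 2.53 and 3.10 in DKO and 0.87, 0.73 and 0.16 in Ets1KO, a rise of 2.23, and its other probe sets differed by 1.73 and 0.40. Tnfaip3, a ubiquitin-editing enzyme, rose by 2.56 at 1 probe set and differed by -0.53 at the other, and its call was lost on leaving out any of the 5 arrays compared. Nfkb2, a precursor subunit, differed by -1.88 and -0.11, a call lost without DKO replicate 1. Of 20 measured interferon-stimulated genes 1 was called, Stat2, which fell by 1.08 and was lost on leaving out any of 5 arrays.

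Immediate-early genes gave 8 higher and 2 lower of 26, but 2 higher and 5 lower as deposited. The higher calls numbered 5 without DKO replicate 1, Ets1KO replicate 2 or Ets1KO replicate 3. Fosl2, a Fos family transcription factor, rose by 2.80 and 1.52, and Maff, a small Maf protein, by 2.00. Both held without any single array. Egr2 rose by 2.12 and Dusp1, a MAP kinase phosphatase, by 2.22, and these were lost on leaving out any of 3 and 10 arrays. The Dusp1 difference was 0.78 without DKO replicate 1 and 3.67 without DKO replicate 2. Endoplasmic reticulum stress genes gave 7 higher and 1 lower of 24, but 1 higher and 8 lower as deposited and 2 higher and 3 lower after quantile normalization. Ddit3, a stress-induced transcription factor, rose by 2.18 and 1.20, and Trib3, a pseudokinase, by 1.29 and 1.06, the latter lost on leaving out any of 4 arrays. Dnajb9, a co-chaperone, rose by 1.12, a call lost without DKO replicate 2, and Sdf2l1 fell by 1.65.

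Among ETS factors, 14 of 24 were measured, 2 were called higher and 3 lower, with a median of -0.09. Erf, an ETS repressor, read -1.37 and -1.58 in DKO and 0.14, -0.12 and 0.12 in Ets1KO, a fall of 1.52 (SE 0.18, limma adjusted p = 0.000716). Etv4 read -0.92 and -0.51 against 1.83, 1.43 and 1.13, a fall of 2.18 that was lost without DKO replicate 1, as was the rise of 0.99 in Etv3. Of 10 measured endothelial genes known as ETS targets, 1 was called, Bcl2l1, which encodes the survival protein Bcl-xL. It read -3.04 and -2.72 in DKO and 1.04, 0.70 and 0.56 in Ets1KO, 12.5-fold lower (log2 -3.65, SE 0.44, limma adjusted p = 0.000803), but it was measured by 1 probe set. Other death and survival genes were mixed, with 4 higher and 3 lower of 27. Bad, a pro-death relative, fell by 1.05 and 1.74 at its probe sets, Bak1 by 1.45, and Birc2, an inhibitor of apoptosis, rose by 1.26.

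Genes with 1 probe set have no such check, and the 4 largest rises and falls among them are given for that reason with their values. The rises were Lcn2, Lif and Pygl, described above, and Tmem45a, which read 3.09 and 1.68 in DKO and -3.91, -1.82 and -1.67 in Ets1KO. The falls were Anapc5, a subunit of the anaphase-promoting complex, Cenpb, which binds centromeric repeats, Ctse, an aspartic protease, and Slc29a1, a nucleoside transporter. Anapc5 read -1.42 and -1.44 against 2.79, 2.68 and 2.64, 17.6-fold lower (log2 -4.14, SE 0.26, limma adjusted p = 7.52e-05). Cenpb differed by -4.03, Ctse by -3.84 and Slc29a1 by -3.67. All 4 falls held when any single array was left out.

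Among matrix genes, the direction of the calls depended on scaling. Collagen, laminin and integrin genes gave 7 higher and none lower of 40, with a median of 0.86, but 1 higher and 6 lower as deposited and 2 higher and 1 lower after quantile normalization. Even after centring, the share called higher was below the 21.6% of all genes. Itgav, an integrin subunit, rose by 1.61 at 1 probe set and differed by -0.68 at another, Nid1, a basement membrane linker, rose by 1.61 at the brightest of 3, and Fn1, fibronectin, rose by 0.81 and 1.75 but differed by -0.03 as deposited. Col4a1, a basement membrane collagen, rose by 1.17 and 1.41, a call lost on leaving out any of 6 arrays, and the Nid1 call was lost without DKO replicate 2. Matrix organisers gave 1 higher, Plod2, of 28, but 7 without DKO replicate 2, and their mean was 1.67 on DKO replicate 1 and 0.15 on DKO replicate 2, against -0.33 to 0.14 in Ets1KO. Fibroblast markers, none of 8 called, had means of 1.72 and 1.12 against 0.13 to 0.76. Extracellular proteases and inhibitors gave 5 higher and none lower of 29, also a smaller share higher than in all genes. As deposited, none was higher and 1 lower. Of these, the brightest probe sets of Adam17, Adam10 and Timp3, a metalloprotease inhibitor, rose by 1.41, 1.23 and 0.87, but the means over their probe sets were -0.66, -1.11 and -0.05. Ctsl, a lysosomal protease, rose by 0.93. The calls of Adam10 and Ctsl were each lost on leaving out any of 4 arrays.

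Signalling lists held members called in both directions, with shares called higher near or below the 21.6% of all genes. VEGF, Notch and endothelial signalling gave 4 higher and 1 lower of 26 (none higher and 8 lower as deposited, 1 of each without DKO replicate 2), among them Notch2, which rose by 1.03 and was lost on leaving out any of 8 arrays. Guidance genes gave 2 higher and 3 lower of 24. Plxnd1, a semaphorin receptor of endothelium, fell by 2.37 (SE 0.38, limma adjusted p = 0.00282) and its relative Plxnb2 by 1.39, while the ligands Sema3c and Efnb1 rose by 3.04 and 0.88 at their brightest probe sets. Another probe set differed by 0.62 for Sema3c and by -0.10 for Efnb1. The calls of Plxnb2, Sema3c and Efnb1 were lost on leaving out any of 4, 5 and 8 arrays. TGF-beta and BMP genes gave 6 higher and 3 lower of 27, and 2 higher and 7 lower as deposited. Skil, a Smad co-repressor, rose by 2.46, and Bmpr2, a receptor, by 1.71 and 0.61. The BMP target Id1 fell by 1.60, and Smad5, a BMP signal transducer, fell by 1.68 at the brightest of 3 probe sets. These 4 calls held without any single array.

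Housekeeping machinery showed how far direction depends on scaling. Cytosolic ribosomal protein genes gave 28 higher and none lower of 45 after centring (median 0.47), 1 higher and 4 lower after quantile normalization, and none higher and 24 lower as deposited. Rps6 rose by 1.28 and kept its direction, while Rps29, Rps28 and Rps20 rose by 0.64, 0.50 and 0.47 after centring and differed by -0.20, -0.35 and -0.37 as deposited. Mitochondrial ribosomal proteins gave 6 higher and 14 lower of 76, and proteasome subunits 6 higher and 12 lower of 45. Mrpl19 fell by 2.31 and 1.42 at its probe sets (brightest SE 0.12, limma adjusted p = 5.6e-05). The second stood for the gene, falling by 1.41 to 1.43, when any single Ets1KO, Ets2KO or WT array was left out. Falls were also found for Mrps11 (-1.84), Mrpl4 (-1.82) and Mrpl34 (-1.66). Psma7 fell by 1.09 and 1.16, a call lost without DKO replicate 1, and Psmd3 fell by 1.79. Psmd13 and Psmd7 fell by 2.65 and 2.10 at the brightest probe set, but another probe set of each differed by 0.45 and 0.02. Respiratory chain subunits gave 21 higher and 6 lower of 73 (7 and 8 after quantile normalization), with Cox7a1 higher by 3.04, all 5 Cox5b probe sets by 0.83 to 0.99, Uqcrb by 0.92 and 0.58, and Cox8a lower at -0.68 and -0.63. The Cox7a1 call was lost on leaving out any of 3 arrays and the Cox8a call without DKO replicate 1.

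Growth, stress and contractile lists followed in the same form. Cell cycle genes gave 3 higher and 3 lower of 41, with a median of -0.75 and means of 1.34 and 0.47 on the arrays labelled DKO against 1.52 to 1.96 in Ets1KO. As deposited none was higher and 15 were lower, and the median was -1.06 without DKO replicate 1 and -0.31 without DKO replicate 2. Besides Anapc5, E2f1 fell by 1.41 at 1 probe set and differed by 0.06 at the other, Cdk2 fell by 0.99, and the tumour suppressor Rb1 rose by 1.13. Replication licensing genes gave 1 higher and 2 lower of 31, with Rfc3 lower by 1.12 and 2.08, Orc2 lower by 0.92 at 1 of 2 probe sets, and Orc3 higher by 0.65 and 0.66. p53-induced genes gave 3 higher and 2 lower of 24, with Phlda3 lower by 2.88, Ei24 lower by 0.99, and Polk and Rrm2b higher by 1.22 and 0.87. The other probe set differed by -0.03 for Polk and by 0.27 for Rrm2b. Calls lost without particular arrays were those of E2f1 (DKO replicate 1), Cdk2 and Polk (any of 3), Rb1, Rfc3 and Orc2 (any of 4), Orc3 (Ets1KO replicate 1 or DKO replicate 2) and Ei24 (any of 9). Heat shock chaperones gave 5 higher and none lower of 19, with Tcp1, Hspa4, Cct8 and Cct2 higher by 0.58 to 0.76, below 0 as deposited. The list had none higher and 1 lower after quantile normalization, where these 4 calls were lost, and 2 higher without DKO replicate 2. The Hspa4 call was lost on leaving out any of 3 arrays, the Tcp1 call without DKO replicate 2, and the Cct8 call without either array labelled DKO. Another probe set differed by -0.68 for Hspa4 and by 0.08 for Cct2. Contractile genes gave 2 higher and 1 lower of 24, with Tpm2 and Myh10 higher by 1.15 and 0.81 and Tpm1 lower by 1.26, all 3 lost on leaving out any of 4 or 5 arrays (0.44 for Tpm2 and 0.41 for Myh10 without DKO replicate 1). The Tpm1 fall is that of the brightest of 3 probe sets, and another differed by 0.87. Lipoprotein genes gave 1 higher, Vldlr, and 1 lower of 17, Scarb1, a lipoprotein receptor, which fell by 1.51.

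Large families are given last. Solute carriers gave 42 higher and 25 lower of 186, and 6 and 84 as deposited, with Slc35a4 lower by 1.80 and Slc12a7 lower by 1.63 at their brightest probe sets. The share of solute carriers called higher was close to the 21.6% of all genes. RING, TRIM and F-box ubiquitin ligases gave 44 higher and 11 lower of 138, and 1 and 54 as deposited, with Rnf217 and Fbxl20 higher by 1.24 and 0.96 at 3 probe sets each in the same direction, Rnf103 higher by 1.05 and Rnf26 lower by 1.38. The Rnf26 call was lost without DKO replicate 2 and the Rnf103 call on leaving out any of 4 arrays.

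**Figure D4:**
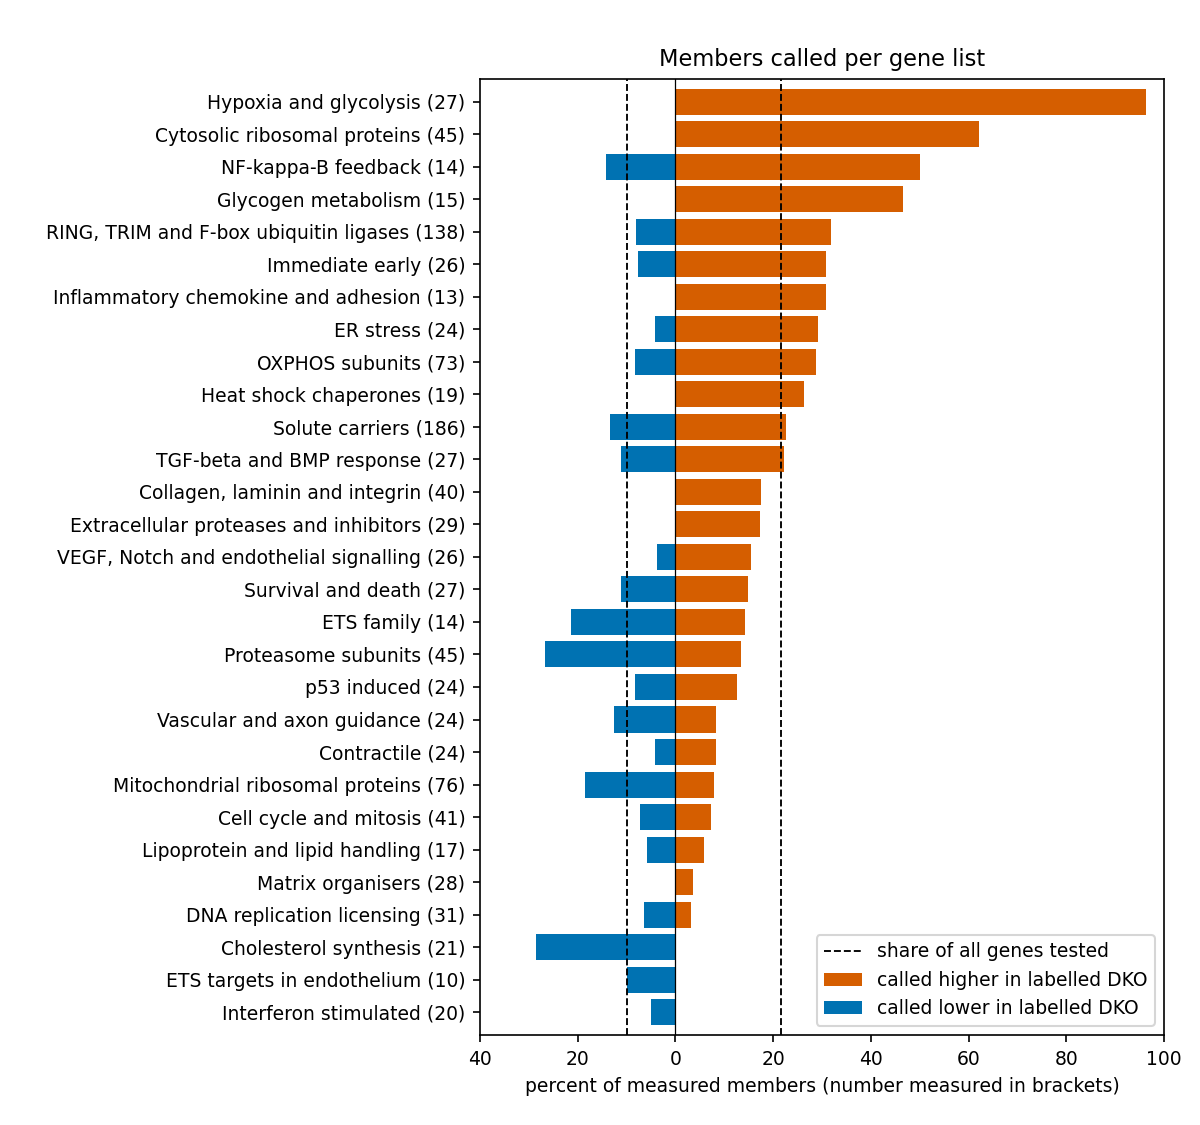
Percent of measured members of each gene list called higher (right of 0) and lower (left of 0) in the arrays labelled DKO against Ets1KO, with the number measured in brackets; dashed lines mark 21.6% and 9.94%, the shares of all 11015 genes. The hypoxia and glycolysis bar is the longest, with 26 of 27 members called higher; the ribosomal protein bar turns to the other side as deposited.

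The arrays labelled Ets2KO against WT differed in far fewer genes, but replicates within these groups varied. Adipocyte markers averaged -1.2, -2.1 and 2.9 in WT and 1.1, 3.3 and 4.1 in Ets2KO. Cell cycle genes averaged 1.8, 1.6 and -0.7 in Ets2KO and 1.7 to 1.8 in WT. The part of this spread in the number of calls was not tested. Of 11015 genes, 37 (0.336%) were called in Ets2KO against WT, and 19 of these were among the 3470 called here, which is 51.4% of the first list and 0.548% of the second. Their directions were the same for 10 and opposite for 9. Those called opposite ways included Egln3 (3.54 here and -2.68 there), P4ha2 (3.56 and -1.73), Hk2 (2.88 and -2.59), Pdk1 (1.19 and -2.0), Nfkbiz (2.23 and -2.84) and Maff (2.00 and -1.86). Srebf2 fell in both (-1.88 and -0.96). The difference between the contrasts, tested as an interaction, was called for 1795 genes (16.3%), 1084 (9.84%) positive and 711 (6.45%) negative.

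The hypoxia and glycolysis list stood on opposite sides of 0 in the contrasts. Of its 27 members, 25 were below 0 in Ets2KO minus WT, 4 of them called, and the interaction was called for 25, against 16.3% of all genes. This list was chosen with these results known, and its calls here are a term of the interaction. For Egln3 the difference between the contrasts was 6.22 (SE 0.60, limma adjusted p = 0.000794). Ppp1r3c moved alike, by 4.34 here and 4.47 there. Of the 12 named rises, 9 were below 0 in Ets2KO minus WT, and of the 12 named falls 8 were above 0. Among all genes with every probe set called, this held for 113 of 272 rises and 70 of 126 falls. The 12 named rises include members of the hypoxia list, so these counts show no general reversal. Across all genes the differences of the contrasts correlated at r = 0.078, a description over genes that share arrays within each contrast.

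**Figure D5:**
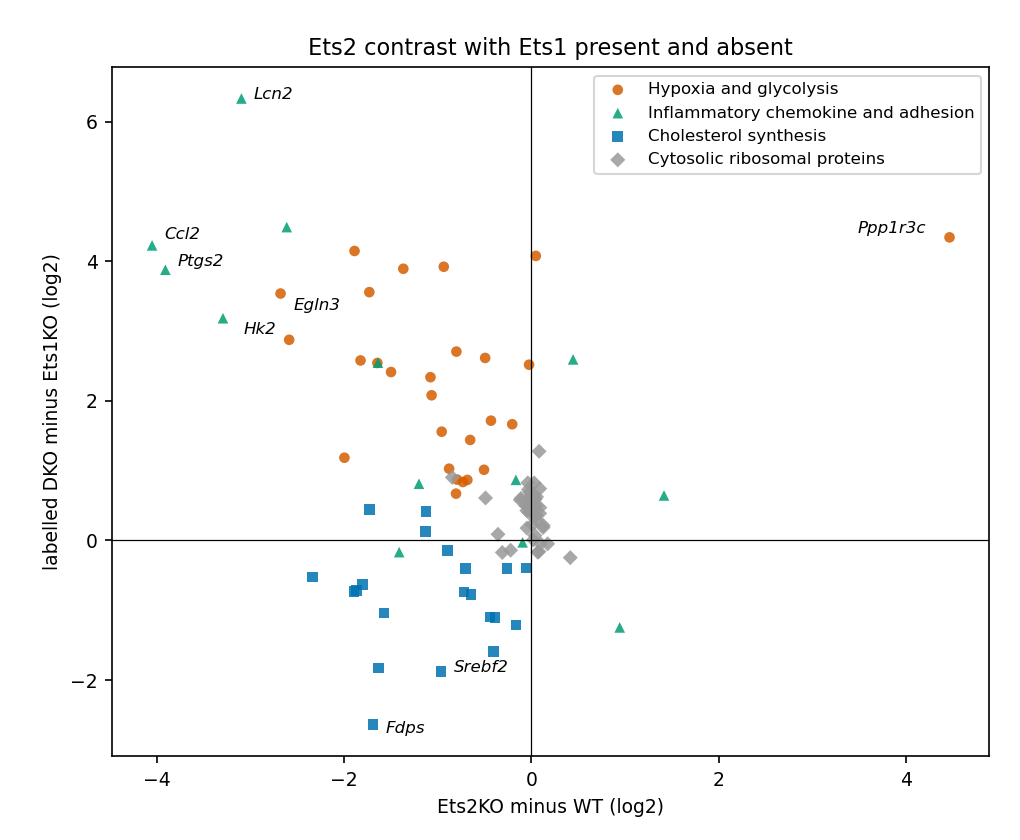
Difference in log2 value for the arrays labelled DKO minus Ets1KO (y axis) against Ets2KO minus WT (x axis), 1 point per gene of 4 lists, at the brightest probe set. Most hypoxia and glycolysis genes lie at the upper left and most cholesterol genes in the lower left, while ribosomal protein genes gather near 0 on the x axis.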

How the data were processed

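Gene expression was measured on Affymetrix mouse arrays. The deposited values are log2 signals from RMA, per the submitters' processing notes, with the version not given in the sources used here. Of 20523 probe sets, 18824 had 1 gene symbol in the platform annotation, 549 several and 1150 were unlisted. Each array's median was subtracted. The probe set with the highest mean stood for each of 11015 genes, and all probe sets with 1 symbol were also fitted. limma 3.58.1 (R 4.3.3) fitted 4 group means over 11 arrays (7 residual and 2.13 prior degrees of freedom), with Benjamini-Hochberg adjustment at 0.05. The fit was tested on simulated data. Short descriptions call Ets1KO and Ets2KO wild type, and titles and genotypes were followed. Titles call samples biological replicates, but no label ties them to separate animals, and the p-values measure only the spread between these samples, which may be technical. The number of arrays limits precision, and no detection call was used. Of genes called with groups not overlapping and the higher group above the median gene, 12 rises and 12 falls had 2 or more probe sets all beyond 1. Another 4 of each had 1 probe set. Ets1 and Ets2 were named whatever their call. Up to 4 called members per list were named whether or not groups overlapped. A call counts as lost when the limma adjusted p without an array reached 0.05 or more. Members, lists and this rule were chosen with earlier results of these data known. Alternatives were deposited values, quantile normalization, mean of probe sets, the 5 arrays alone, a replicate block, a filter on dim genes, the third DKO column, and leaving out each array. Figures were drawn with matplotlib.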

Additional observations from a re-analysis of the deposited data

Results flagged for a closer look

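Of 121 genes named, 76 had a difference in the arrays labelled DKO minus Ets1KO that differed from that in Ets2KO minus WT, by limma's interaction term at an adjusted p below 0.05. Over all 11015 genes the interaction was called for 1795 (16.3%), and for 1564 of the 3470 genes called in DKO against Ets1KO. Nearly all genes were named for a call in that contrast, which is a term of the interaction, so the count of 76 is a description. The values are log2 differences (DKO minus Ets1KO, less Ets2KO minus WT) at the brightest probe set, and all of them rest on the 2 arrays labelled DKO. For Ets1, Tnfaip3, Hspa4, Itgav, Adam17, Psmd13 and Psmd7, another probe set differed in the other direction in DKO minus Ets1KO. How the interaction of single genes changes on leaving out an array was not examined. Among targets and ETS factors the difference was 2.64 for Ets1 and -1.36 for Erf. In hypoxia, glycolysis and glycogen genes it was 6.22 for Egln3, 4.86 for Adm, 4.19 for Higd1a, 3.51 for Ero1a, 3.42 for Slc2a1, 3.15 for Vegfa, 2.39 for Apln, 2.99 for Pgm1, 6.74 for Pygl and 1.06 for Ugp2. Inflammatory and NF-kappa-B genes differed by 9.43 for Lcn2, 7.79 for Ptgs2, 7.10 for Lif, 5.06 for Nfkbiz, 4.73 for Tnfaip3, 4.19 for Ccl5 and 2.77 for Nfkbia. Immediate-early genes differed by 4.99 for Dusp1, 3.86 for Maff and 2.67 for Fosl2. Stress and chaperone genes differed by 2.69 for Trib3, 1.70 for Ddit3, -1.60 for Sdf2l1, 1.23 for Hspa4, 1.09 for Tcp1, 0.82 for Cct8 and 0.70 for Cct2. Survival, p53 and cell cycle genes differed by -3.99 for Bcl2l1, -1.05 for Bad, 0.99 for Birc2, -4.04 for Phlda3, 0.98 for Rrm2b, -4.33 for Anapc5 and -4.21 for Cenpb. Signalling and guidance genes differed by 2.80 for Skil, -2.20 for Smad5, -2.11 for Id1, -2.64 for Plxnd1, -1.93 for Plxnb2, -3.74 for Gna12, -1.89 for Tcf3, -2.48 for Akt1s1 and 2.79 for Homer1. Matrix, surface and protease genes differed by 3.07 for Plod2, 1.51 for Itgav, 1.64 for Adam17, 1.77 for Ctsl, -3.37 for Cd99, -5.73 for Qsox1, -4.03 for Ctse and 5.70 for Tmem45a. Respiratory chain and cytosolic ribosomal genes differed by 3.84 for Cox7a1, 1.0 for Cox5b, 0.94 for Uqcrb, -0.75 for Cox8a, 1.20 for Rps6 and 0.63 for Rps29. Mitochondrial ribosomal and proteasome genes differed by -1.97 for Mrpl19, -1.87 for Mrpl4, -2.01 for Mrps11, -1.63 for Mrpl34, -2.47 for Psmd13, -2.01 for Psmd7 and -1.56 for Psmd3. Transporters and the remaining enzymes differed by -3.99 for Slc29a1, -2.20 for Slc25a10, -1.81 for Slc35a4, -1.73 for Slc12a7, -2.31 for Sbf1, -2.26 for Ppp5c, -2.58 for Arpc4, -2.79 for Otub1, 1.47 for Rnf217 and -0.92 for Srebf2.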

How the results depend on the processing

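The precision of every difference is limited by 2 arrays labelled DKO. As deposited, 190 genes were called higher and 4710 lower, 1111 with all probe sets (13 higher, 1098 lower), 3479 had the interaction called, and Ets2 differed by -0.073. The split follows from the subtracted medians. As deposited the differences of 11 named genes reversed, Ets2 and 10 others: Orc3 (-0.197), Tcp1 (-0.080), Hspa4 (-0.133), Cct8 (-0.248), Cct2 (-0.263), Fn1 (-0.032), Myh10 (-0.034), Rps29 (-0.202), Rps28 (-0.347) and Rps20 (-0.373). Quantile normalization left 177 genes higher with all probe sets and turned Rps28 (-0.031). Averaging probe sets gave 60 calls in Ets2KO against WT and turned Adam17 (-0.659), Adam10 (-1.113) and Timp3 (-0.045), each with a strongly lower probe set. With the third DKO column as an array, 619 genes had all probe sets called (437 higher), 2894 the interaction and 332 Ets2KO against WT. Numbers do not pair the samples (11 correlations of same-numbered deviations, -0.325 to 0.104), and with the replicate block the interaction had 1130 calls and Ets2KO against WT 0. The total of 3470 calls lay between 2804 and 4900 under the alternatives that kept all arrays. Leaving out 1 array gave 2349 to 3869 calls, 1515 to 2651 higher, 780 to 1246 lower, 222 to 460 with all probe sets (128 to 312 higher), 1011 to 1857 interactions, 2 to 79 for Ets2KO against WT, and differences of 2.04 to 2.46 for Ets1 and 0.082 to 1.46 for Ets2. Higher calls fell to 1515 without Ets1KO replicate 3, 1569 without DKO replicate 1 and 1563 without DKO replicate 2. Genes with all probe sets called fell to 222 without DKO replicate 2, and to 244 and 235 when Ets1KO replicate 2 or 3 was left out. Of 121 named genes, 37 lost their call without DKO replicate 1 and 36 without DKO replicate 2.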
